A study of Homo sapiens with 12 samples.

Results

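The cytosolic ribosomal protein genes, which encode the protein part of the ribosome outside mitochondria, were followed here while BT474, a long-established line of HER2-positive breast cancer cells, became resistant to lapatinib. The members were picked by gene symbol alone: all large subunit (RPL) and small subunit (RPS) symbols of the usual form, together with RPLP0, RPLP1, RPLP2, RPSA and FAU. Of the 26485 genes in the table, 80 fitted the symbol form and 5 were added by name. RPL19 and RPL23 were left out, because both lie near ERBB2 in a region whose copy number is raised in this cell line. This left 83 members, comprising 41 large subunit proteins, 32 small subunit proteins, 3 proteins of the stalk and 7 paralogs that carry an L or L1 suffix. The cells of all groups were of wild-type genotype, and mRNA was sequenced from 12 libraries over a course of 1 µM lapatinib, a HER2 and EGFR kinase inhibitor, renewed every 3 days. The 4 groups of 3 libraries each were Control (day 0), the drug-tolerant persisters (DTP, day 9), the drug-tolerant expanded persisters (DTEP, month 6) and long-term resistant cells (LR, month 9). The treatment label of Control also names lapatinib at 1 µM, and its libraries were read as untreated from the day 0 in their titles. The 3 libraries of a group were technical replicates from parallel plates of 1 cell line, so the n of 3 and every p-value measure only the spread between these libraries.

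Each ribosomal subunit contains a single copy of most of its proteins, and the cell makes them in near-equal amounts. In vertebrates their mRNAs are known for a 5′ terminal oligopyrimidine (TOP) start, a C at the first position followed by a run of C and T, through which mTORC1 and the RNA-binding protein LARP1 set how strongly they are translated and how long they last. HER2 signals to mTORC1 through PI3K and AKT. Several of the proteins are also named for roles beside translation, such as RPL5 and RPL11, which bind MDM2. RPS6 is a substrate of the S6 kinases.

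To show the start that the family shares, the first 25 bases of the annotated transcript are printed for 5 members with the TOP start and for 2 members without it, on which later results turn. Sequences are from hg38 and GENCODE 44 (MANE Select transcripts), 5′ to 3′ in the sense of transcription, with the C and its unbroken run of C and T in capitals.
RPS3: CCTTTCCTTTCagcggagcgcggcg
RPL26: CTCTTCCCTTTTgcggccatcaccg
RPL27A: CTTTTTCgtctgggctgccaacatg
RPL38: CTTTTTCgtccttttccccggttgc
RPS21: CCTTTCTCTCTCgcgcgcggtgtgg
RPL39L: gcggtcttagcatccggcgcgcggc
RPS27L: gcagatcgcttgcagcttgctagct
These bases are the beginning of exon 1 and of the 5′ UTR, except that in RPL27A the last 3 are the start codon. They lie at chr11:75399518-75399542 on the plus strand for RPS3, at chr17:8383169-8383193 on the minus strand for RPL26 and at chr11:8682792-8682816 on the plus strand for RPL27A. RPL38 starts at chr17:74203678-74203702 on the plus strand and RPS21 at chr20:62387103-62387127 on the plus strand. RPL39L starts at chr3:187139472-187139496 on the minus strand and RPS27L at chr15:63157453-63157477 on the minus strand. A C followed directly by at least 4 pyrimidines stood at the annotated start of 60 of the 83 members (72.3%), and the median run of those 60 was 8 bases with the C. The same letters stood at the start of 599 of 12140 other tested genes with such a transcript (4.93%). Of the 7 paralogs only RPL22L1 had this start. These matches describe the annotated letters and not which start the cells used.

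The libraries held 16383363 to 25030482 assigned reads, and values are normalised read counts (CPM of a library size scaled by the trimmed mean of M values, TMM). In such bulk samples, fewer cells with a transcript and less of it per cell cannot be told apart. The 7 epithelial markers fixed for BT474 were read in every library, and in LR against Control 5 were called lower and 1 higher. Group means in Control and LR were 1125 and 75.1 for CDH1, 6526 and 1774 for ERBB2, 987 and 351 for KRT8, 1122 and 444 for KRT19, 651 and 426 for KRT18, 205 and 246 for EPCAM, and 190.3 and 1251 for GATA3. Of 15 markers of fibroblasts, leukocytes and endothelium 11 stayed under 1 in every library, the others being COL1A1 (48.1 to 130.4), CD68, LYZ and VWF (each at most 8.57). The part of these shifts in the members' results was not tested. No replicate pair agreed within sampling noise (1.67 to 229.7 times the expected chi-square per gene). Replicate numbers did not pair the libraries. Among the DTEP libraries, replicate 1 stood apart for the members, and results that rest on it are given without it below. Over all genes, DTEP replicate 3 was the farthest from both others. The chi-square per gene was 229.7 between DTEP replicates 1 and 3, 143.8 between 2 and 3 and 70.5 between 1 and 2.

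The 83 members differed widely in level. Among the 76 other than the paralogs, the lowest were those with near-identical copies elsewhere in the genome. Ribosomal protein genes have many processed pseudogenes, so coding stretches of 50 bases were searched for in the rest of hg38, and the share found elsewhere is called the shared share below. Per kb of coding length, RPS3, a small subunit protein at the mRNA entry site, stood highest, at 3082 normalised read counts per kb over the 12 libraries, followed by RPL30 (2823) and RPL37A (2624). Over the 76 members other than the paralogs, the median level per kb was 1115 for the 14 with under 10% shared, 908 for the 27 with 10 to under 50%, 431 for the 24 with 50 to under 90% and 16.7 for the 11 with 90% or more. All 12 of these members with a mean under 30 normalised read counts had at least 71.8% shared. RPL7 (99.7% shared) read 0.678 to 1.96 over the libraries and RPS10 (95.7%) 0.381 to 1.51, though both are core subunits. How reads with several equal matches were placed is not given in the sources used here, and the part of shared sequence in each level was not tested. Levels of members with high shared shares are therefore uncertain, and the shared share is given once for each named member with 50% or more.

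**Figure D1:**
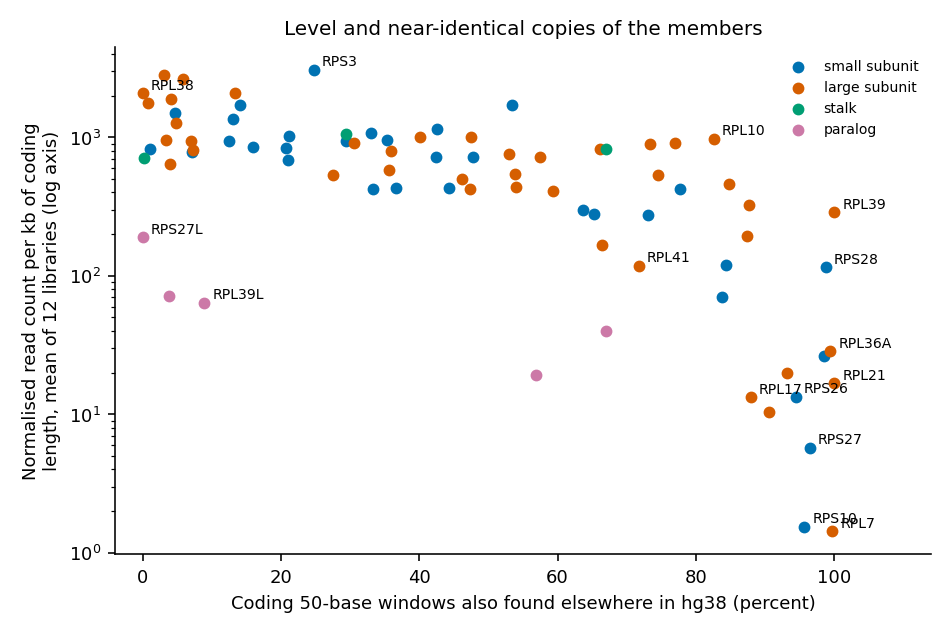
Level of each member except RPL3L and RPL10L against the percent of its 50-base coding windows that also occur elsewhere in hg38. Levels are means of 12 libraries (normalised read count per kb of coding length, log axis). Points are genes coloured by class, and the lowest points, near 1.43 for RPL7, lie at the right, where almost every window is shared, whereas RPS3 is at 3082.

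The members, which leave out RPL19 and RPL23, took up a much larger share of the reads in DTP than in Control. In LR they were back near the Control share. Their summed level was 20712, 20007 and 21077 normalised read counts in Control, 44011, 42420 and 33661 in DTP, 45497, 28163 and 27087 in DTEP, and 21399, 20555 and 25472 in LR. As a share of assigned reads this was 2.04 ± 0.0572% in Control (SD, n = 3), 4.24 ± 0.588% in DTP, 3.26 ± 0.924% in DTEP and 2.21 ± 0.340% in LR. All DTP libraries lay above all Control libraries, by 1.94-fold in the mean sum. The DTEP libraries did not agree among themselves: replicate 1 had 1.65 times the mean sum of replicates 2 and 3. Its sum exceeded every DTP library, whereas its share of reads, 4.32%, lay below those of DTP replicates 1 and 2 (4.67 and 4.47%). Replicates 2 and 3 lay between Control and DTP on both measures. The LR libraries overlapped those of Control, and their mean sum was 1.09 times that of Control. That return depends on leaving out RPL19 and RPL23, which averaged 7007 and 3075 in Control and 450 and 355 in LR. With both added, the LR mean sum and the sums of DTEP replicates 2 and 3 would lie below the Control mean.

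**Figure D2:**
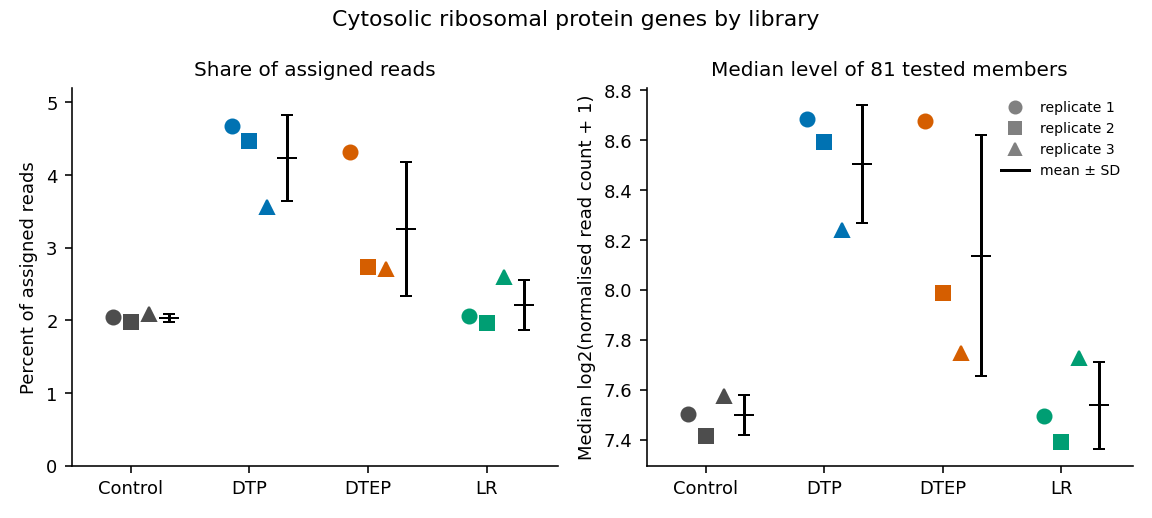
Share of assigned reads in the 83 members (left, percent) and median log2(normalised read count + 1) of the 81 tested members (right) in each library, with the mean ± SD of each group of 3 in black. Control libraries sit at 1.98 to 2.09% and DTP libraries at 3.57 to 4.67%, DTEP replicate 1 stands apart from replicates 2 and 3 at 4.32%, and LR libraries sit at 1.97 to 2.60%.

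The first transition, from Control to DTP, shows how the genes stood when few cells had survived 9 days of the drug. Most of the family rose, and by a similar amount. Of the 81 members that passed the filter, set at 1 normalised read count in 3 libraries (RPL3L and RPL10L did not), 69 were higher and 1 was lower in DTP at an adjusted p below 0.05 (limma), where 25.2% and 28.8% of the 13794 genes tested were called higher and lower. The median log2 change of the members was 0.87, against -0.01 over all genes tested, and 70 of the 81 lay within 0.5 of that median. Groups did not overlap for 72 members with higher values, 88.9% of the 81, where this held for 37.7% of all genes, and for 2 members with lower values (39.6% of all genes). No member passed a log2 change of 2 in either direction, a second threshold that 1.01% and 3.9% of all genes passed. By class, 35 of 41 large subunit members, 29 of 32 small subunit members and the 3 stalk members were called higher, with medians of 0.89, 0.91 and 1.08. With any 1 of the 12 libraries left out, the count of higher members was between 57 and 70 (18.7 to 30.3% of all genes).

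On the log2(value + 1) scale the largest rises belonged to the large subunit proteins RPL27A, RPL13 and RPL26, while the ratio of means was larger for RPS28, at 3.14, which was read at under 3 normalised read counts in both groups. RPL27A (57.5% shared) read 277, 270.0 and 282 normalised read counts in Control, 805, 793 and 587 in DTP, 293, 142 and 111 in DTEP and 84.5, 84.2 and 106 in LR. The DTP mean was 2.64 times that of Control, a rise of 1.38 ± 0.28 log2 units (adjusted p = 0.00148). RPL13 (46.2% shared), a surface protein of the large subunit, read 212, 210.0 and 224 normalised read counts in Control, 632, 557 and 419 in DTP, 432, 244 and 221 in DTEP and 199, 193 and 244 in LR. It rose by 1.29 ± 0.23 log2 units (adjusted p = 0.00066), and its DTP libraries lay above all others except that DTEP replicate 1 exceeded DTP replicate 3. RPL26 (53.9% shared), which sits by the exit tunnel, read 186, 169.8 and 189.6 normalised read counts in Control, 466, 461 and 386 in DTP, 269, 147 and 145 in DTEP and 123, 133 and 159 in LR. It rose by 1.26 ± 0.21 log2 units (adjusted p = 0.00043), with all DTP libraries above every other library.

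RPL5, RPL11 and RPS6, all named above, were called higher. RPL5 and RPL11, which with 5S rRNA form the particle that binds MDM2, rose by 0.90 ± 0.17 log2 units (adjusted p = 0.00101) and 0.82 ± 0.22 log2 units (adjusted p = 0.00842). RPS6 read 432, 400.4 and 434 normalised read counts in Control, 951, 952 and 777 in DTP, 1056, 558 and 502 in DTEP and 423, 505 and 663 in LR. It rose by 1.07 ± 0.25 log2 units (adjusted p = 0.00377), and all DTP libraries exceeded all Control libraries. RPS19 and RPS14, small subunit proteins lost in Diamond-Blackfan anaemia and 5q- syndrome, rose by 0.84 ± 0.22 log2 units (adjusted p = 0.00624) and 0.99 ± 0.22 log2 units (adjusted p = 0.00289). RPL13A (73.4% shared), a surface protein of the large subunit, rose by 1.19 ± 0.19 log2 units (adjusted p = 0.00029), and RPS27A (73.1% shared), made as a fusion with ubiquitin, by 0.86 ± 0.22 log2 units (adjusted p = 0.00653). The stalk proteins, which recruit translation factors, rose as well: RPLP0 (67.0% shared) by 0.68, RPLP1 by 1.08 and RPLP2 by 1.12 on the log2 scale (adjusted p = 0.0129, 0.00165 and 0.00468). RPSA, the laminin receptor protein of the small subunit, did not pass at 0.44 ± 0.25 log2 units (adjusted p = 0.165), and neither did RPS2 (0.30 ± 0.27 log2 units, adjusted p = 0.371) or RPL41, with 71.8% shared (0.18 ± 0.26 log2 units, adjusted p = 0.6). RPL7L1 (67.0% shared) was the single member called lower. It read 37, 38.1 and 38.2 normalised read counts in Control, 12.7, 13.5 and 19.7 in DTP, 29.8, 38.8 and 34.5 in DTEP and 32.1, 35.4 and 36.1 in LR, fell by 1.28 ± 0.17 log2 units (adjusted p = 9.8e-05), and its DTP libraries lay below all others.

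**Figure D3:**
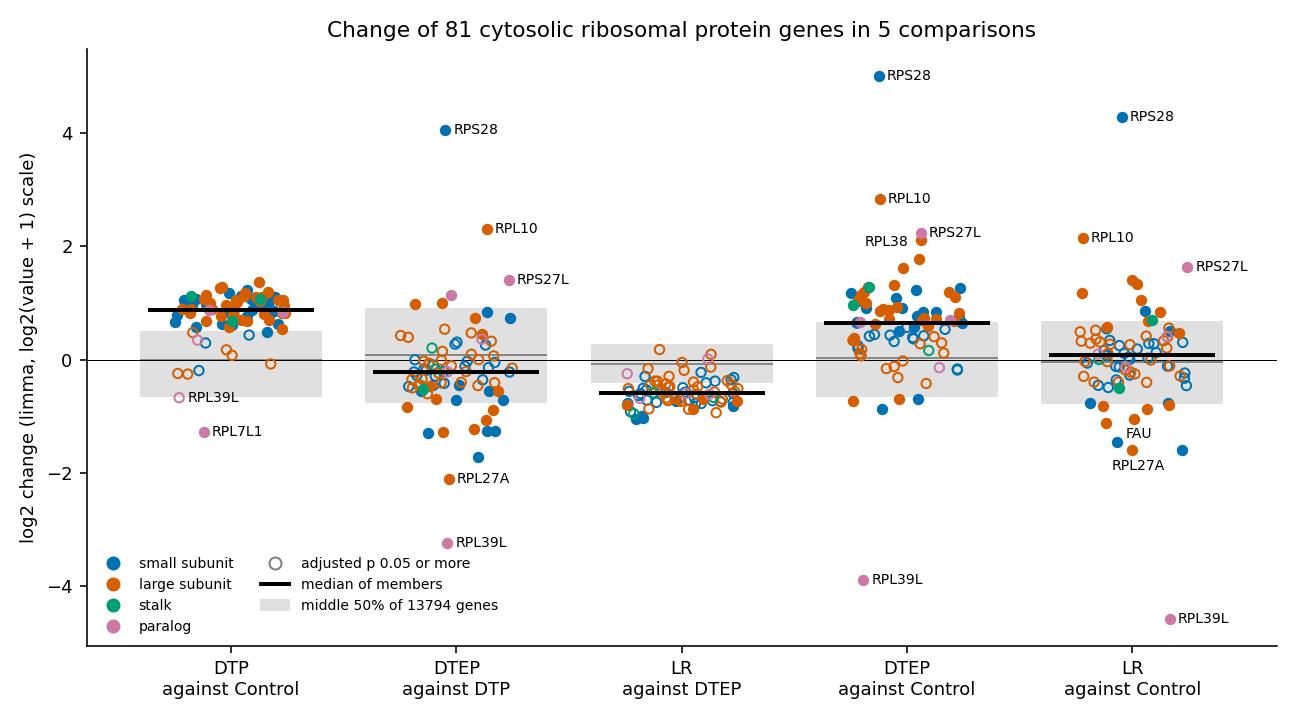
Log2 change of each of the 81 tested members (limma, log2(value + 1) scale) in 5 comparisons, coloured by class, filled where the adjusted p is below 0.05. Black lines are member medians (0.87, -0.21, -0.59, 0.65 and 0.08 from left to right), grey boxes the middle 50% of 13794 genes, and RPS28, RPL10 and RPL39L lie farthest from the member median in DTEP against DTP and in DTEP and LR against Control.

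The rise in DTP was seen with or without shared sequence. Of the 44 tested members with under 50% shared, 42 were called higher and none lower, with a median log2 change of 1.01, and of the 37 with 50% or more, 27 were higher and 1 lower, with a median of 0.71. Of the 60 members with the TOP start 54 were higher (median 0.90), and of the 21 without it 15 were higher (median 0.84). The 599 other tested genes with the same start letters had a median of -0.02, with 160 higher and 167 lower. Of 30 other mRNAs listed as TOP mRNAs, such as those of translation factors, 14 were higher and none was lower (median 0.50). Of 76 mitochondrial ribosomal protein genes 21 were higher and 7 lower (median 0.33), and of 18 genes of mTOR signalling and TOP mRNA control 1 was higher and 11 lower (median -0.47). Most members are short, and the 1945 other genes with a coding length of up to 700 bases had a median of 0.22 against -0.11 for the 10195 longer ones. Proteasome subunits, with a median of 0.18, and oxidative phosphorylation subunits, with 0.32, stood nearer to those short genes than to the members.

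**Figure D4:**
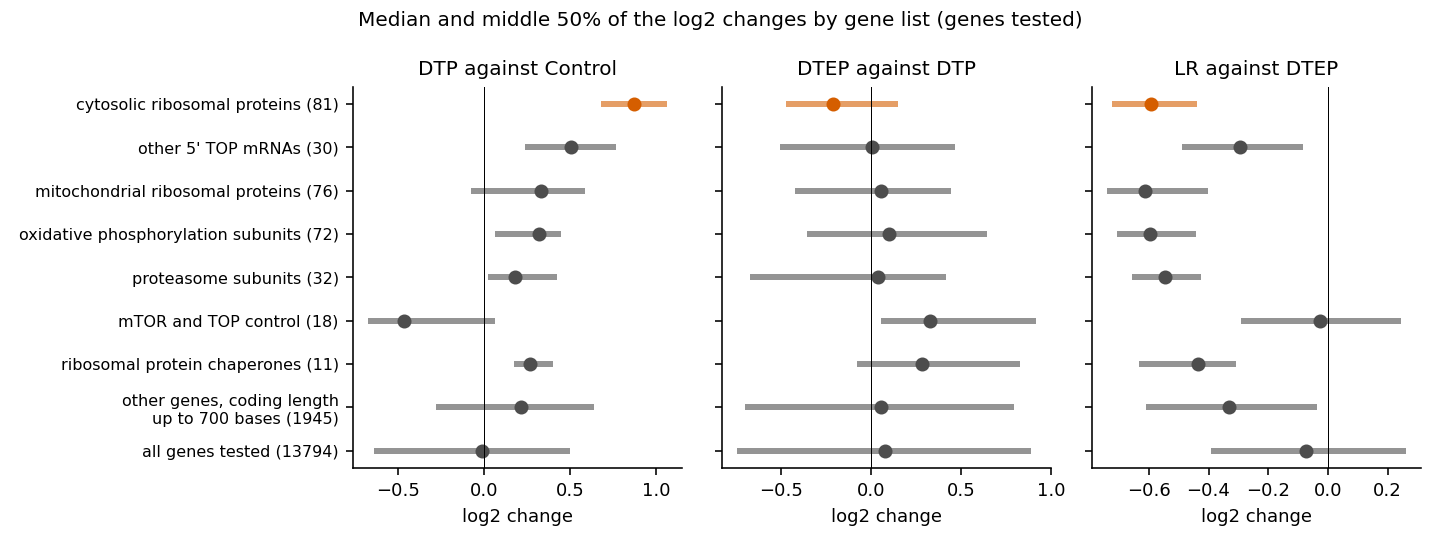
Median (points) and middle 50% (bars) of the log2 changes of the genes tested in each list, for the 3 transitions, with the number of genes tested in parentheses. From Control to DTP the members sit at 0.87 and all genes at -0.01. From DTEP to LR mitochondrial ribosomal proteins (-0.61), oxidative phosphorylation subunits (-0.60) and proteasome subunits (-0.54) sit beside the members (-0.59). In DTEP replicate 3 these other lists already had summed levels near those in LR.

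From DTP to DTEP, when growth resumed under the drug, the called members moved in both directions. At an adjusted p below 0.05, 10 were higher and 20 lower in DTEP, 12.3% and 24.7% of the 81, where 35.7% and 32.6% of all genes were called. The median log2 change was -0.21, and 52 of the 81 lay within 0.5 of it. The SD over members was 0.89, against 0.45 in the first transition, and the SD over all genes tested was 1.52, against 1.01. Both counts depended on single DTEP libraries. Without DTEP replicate 1, 43 members were lower (all genes 33.5%) and the median was -0.43, and without DTEP replicate 3, 16 were higher (all genes 38.2%) and the median was -0.04. Past a log2 change of 2, 2 members were higher (RPS28 and RPL10) and 2 lower (RPL39L and RPL27A), where the shares of all genes were 8.13% and 7.02%. Groups did not overlap for 10 members with higher values (34.5% of all genes) and 13 with lower values (32.8%).

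RPS28, a small subunit protein next to the mRNA exit, showed the largest rise. It read 0.92, 0.761 and 0.699 normalised read counts in Control, 2.77, 2.52 and 2.19 in DTP, 74.7, 49.2 and 49.8 in DTEP and 32.9, 33.8 and 35.5 in LR. Control libraries held 14 to 20 reads of it and DTEP libraries 887 to 1562, and the change from DTP to DTEP was 4.05 ± 0.19 log2 units (adjusted p = 7.8e-09). As 98.8% of its coding windows occur elsewhere, these reads are uncertain in origin. RPL10, which joins the large subunit late and shapes its catalytic centre, read 181, 171 and 182 normalised read counts in Control, 276, 268 and 232 in DTP, 1524, 1136 and 1196 in DTEP and 727, 776 and 882 in LR. It rose by 2.30 ± 0.14 log2 units (adjusted p = 8.1e-08), with no overlap between the 6 libraries of Control and DTP and the 6 of DTEP and LR, and 82.6% of its windows are shared. RPL38, a small protein of the large subunit whose coding sequence has no window elsewhere (0%), read 168, 168 and 169 normalised read counts in Control, 411, 417 and 295 in DTP, 1078, 659 and 551 in DTEP and 422, 466 and 454 in LR. It rose by 0.98 ± 0.22 log2 units (adjusted p = 0.00159) on top of 1.13 ± 0.22 log2 units (adjusted p = 0.00105) in DTP, and its rank per kb of coding length went from 15 in Control to 1 in DTEP. RPL14 (59.4% shared) rose by 1.01 ± 0.17 log2 units (adjusted p = 0.00024) and RPL4 (52.9% shared) by 0.74 ± 0.17 log2 units (adjusted p = 0.0018). RPSA rose by 0.74 ± 0.25 log2 units (adjusted p = 0.0204), a call lost under 4 alternatives, among them leaving out DTEP replicate 1 or DTP replicate 3.

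Members called lower included RPL27A, FAU, RPL26 and RPS3. RPL27A lost its DTP rise and more, at -2.11 ± 0.28 log2 units (adjusted p = 3.3e-05), and its DTEP replicates 2 and 3 lay below every Control library. FAU (21% shared), a fusion of a ubiquitin-like protein with RPS30, read 323, 289 and 318 normalised read counts in Control, 561, 519 and 362 in DTP, 275, 194 and 132 in DTEP and 106, 116 and 115 in LR. It changed by -1.30 ± 0.23 log2 units (adjusted p = 0.00034), and no DTEP library reached the lowest Control library. RPS3, the highest member per kb of coding length in Control and DTP, read 1924, 1869 and 1949.5 normalised read counts in Control, 4531, 4380.2 and 3486 in DTP, 2652, 1407 and 1338 in DTEP and 1071, 1033 and 1317 in LR. It changed by -1.26 ± 0.25 log2 units (adjusted p = 0.00077), and its rank per kb went from 1 to 4. RPL26 fell as far, at -1.28 ± 0.21 log2 units (adjusted p = 0.00019). FAU, RPL27A, RPS3 and RPS13, all called lower, are on chromosome 11, and the 6 members there had a median of -1.26 against -0.17 for 697 other genes of that chromosome. That chromosome was singled out after the values were seen.

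**Figure D5:**
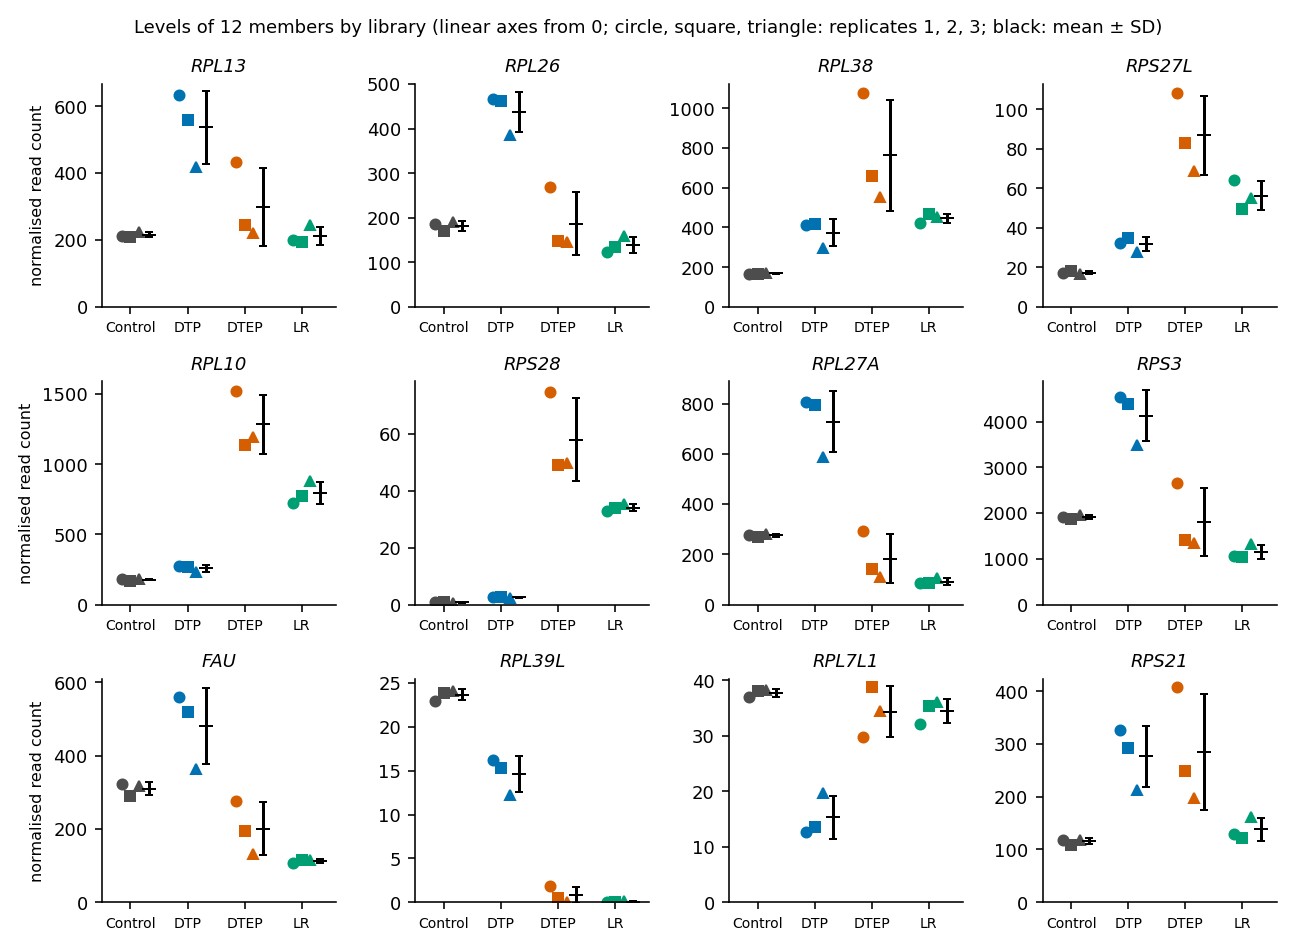
Normalised read counts of 12 members in each library (points, shaped by replicate number) with mean ± SD of each group of 3 (black), on linear axes that start at 0. RPL13 and RPL26 peak in DTP, RPL38, RPS27L, RPL10 and RPS28 are highest in DTEP, RPL27A, FAU and RPS3 end below Control in LR, RPL39L falls to 0 to 0.0969 in LR, and RPL7L1 dips in DTP.

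The paralogs behaved each in its own way. RPL39L, a testis-rich copy of the exit tunnel protein RPL39, read 23, 23.9 and 24.1 normalised read counts in Control, 16.2, 15.3 and 12.3 in DTP, 1.87, 0.494 and 0.0561 in DTEP and 0, 0 and 0.0969 in LR. It had 440 to 517 reads per Control library, 1 to 39 per DTEP library and 0 to 2 per LR library, and 8.91% of its windows are shared. Its level in Control was 737 times that in LR, with a 95% exact counting interval of 204 to 6093 that rests on 2 LR reads and covers counting error only. The log2 change, which adds 1 to each value and so understates such a fall, was -0.67 ± 0.29 log2 units (adjusted p = 0.0654) in DTP, which did not pass, and -3.23 ± 0.29 log2 units (adjusted p = 1.2e-06) from DTP to DTEP. RPL39 itself (100% shared) read 26.4, 23 and 26.2 normalised read counts in Control, 58.5, 53.6 and 47.6 in DTP, 86.3, 50.6 and 46.6 in DTEP and 38.7, 28.3 and 41.8 in LR, so that the ratio of RPL39L to RPL39 per coding length was 0.943 ± 0.0878 in Control (SD, n = 3), 0.273 ± 0.0141 in DTP and 0.0109 ± 0.0103 in DTEP. As all windows of RPL39 are shared, its level is uncertain, so the ratio does not give the true proportion of the 2 transcripts. RPS27L, known as a p53 target, has no shared window and read 17.2, 18 and 16.6 normalised read counts in Control, 32.4, 35.1 and 27.9 in DTP, 108, 83.1 and 68.6 in DTEP and 64, 49.8 and 55.3 in LR. It rose by 0.84 ± 0.17 log2 units (adjusted p = 0.00174) and again by 1.40 ± 0.17 log2 units (adjusted p = 1.9e-05), with each DTEP library above every DTP library. RPL22L1 rose in DTP by 0.87 ± 0.22 log2 units (adjusted p = 0.00558) and its counterpart RPL22 (84.7% shared) by 0.81 ± 0.14 log2 units (adjusted p = 0.00059), and the ratio of the pair per coding length was 0.138 ± 0.0161, 0.148 ± 0.0203, 0.176 ± 0.0307 and 0.152 ± 0.0211 over the 4 groups. RPL26L1 (56.8% shared) did not pass in DTP (0.35 ± 0.24 log2 units, adjusted p = 0.242) while RPL26 rose. RPL7L1, a nucleolar factor of large subunit assembly, returned with 1.14 ± 0.17 log2 units (adjusted p = 9.7e-05). The muscle paralog RPL3L had at most 4 reads in any library, and the testis paralog RPL10L had none, which allows up to 0.124 to 0.173 normalised read counts per library. RPL7 and RPS27, the counterparts of RPL7L1 and RPS27L, were too low for a ratio to be read, at 99.7% and 96.5% shared.

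From DTEP to LR nearly all members had somewhat lower values, and few passed the test. Of the 81, 78 had a negative log2 change, with a median of -0.59 against -0.07 over all genes tested and an SD over members of 0.25. At an adjusted p below 0.05, 9 were lower and none higher, where 4.31% and 3.04% of all genes were called, and at an unadjusted p below 0.05 these were 58 and 0 (20.7% and 14.2% of all genes). LR lay wholly below DTEP for 47 members (58%), against 13.4% of all genes, and above it for none (9.15%). No member passed a log2 change of 2 (0.225% of all genes higher and 0.457% lower). The count of 9 rested on single libraries. It was 0 when DTEP replicate 1, LR replicate 1 or LR replicate 2 was left out and 1 without DTEP replicate 2 (0.494 to 1.03% of all genes), and rose to 64 when DTEP replicate 3 was left out, where 28.2% of all genes were then called lower. No gene of the table was called with only the 6 libraries compared, and edgeR called 18 members lower (8.56% of all genes) and DESeq2 45 (15.1%). The median stayed between -0.74 and -0.34 in all these cases.

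RPSA, RPS2 and RPS21 had the largest called falls on the log2(value + 1) scale. RPSA (84.4% shared) read 71.9, 72.6 and 71.9 normalised read counts in Control, 105, 106 and 84.9 in DTP, 248, 160.3 and 112 in DTEP and 79.8, 60.5 and 102 in LR, which gave -1.05 ± 0.25 log2 units (adjusted p = 0.0347). RPS2 (77.7% shared), at the mRNA entry site, read 329, 321 and 332 normalised read counts in Control, 446, 424 and 343 in DTP, 774, 475 and 313 in DTEP and 234, 198 and 295 in LR, which gave -1.02 ± 0.27 log2 units (adjusted p = 0.0425). RPS21 (1.01% shared) read 119, 108 and 118 normalised read counts in Control, 326, 292 and 212 in DTP, 408, 249 and 198 in DTEP and 130.0, 122 and 162 in LR, which gave -0.99 ± 0.24 log2 units (adjusted p = 0.0356). For each of these 3 the LR libraries lay below all DTEP libraries, and DTEP replicate 1 was the highest of the 12. RPS28 and RPL10 were also called lower, at -0.72 ± 0.19 log2 units (adjusted p = 0.0408) and -0.68 ± 0.14 log2 units (adjusted p = 0.0219), and stayed far above Control. The calls of these 5 members were lost under 4 to 15 of the alternatives. RPL3, which binds near the catalytic centre, was the exception among abundant members, at 0.18 ± 0.17 log2 units (adjusted p = 0.469). In other lists the median log2 change was -0.61 for mitochondrial ribosomal proteins, -0.60 for oxidative phosphorylation subunits, -0.54 for proteasome subunits, -0.33 for other short genes, -0.29 for the 30 other TOP mRNAs and -0.03 for the mTOR list.

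Against Control, which both comparisons below share, DTEP held most of the family higher and LR did not. In DTEP, 46 members were higher and 5 lower (29.5% and 28.7% of all genes), with a median log2 change of 0.65. Groups did not overlap for 52 members with higher values (33.2% of all genes) and 5 with lower values (32.5%). Past a log2 change of 2 were RPS28, RPL10, RPS27L and RPL38, which were higher (4.43% of all genes), and RPL39L, which was lower (6.2%). Without DTEP replicate 1 the median was 0.42, with 34 members higher and 9 lower (28.9% and 29.2% of all genes). In LR, 14 were higher and 12 lower (30.2% and 32.6% of all genes), with a median of 0.08 that turned to -0.046 without LR replicate 3. Without DTEP replicate 1, 25 were higher and 18 lower (32% and 34% of all genes). A median near 0 did not mean that single members stood near 0, as the SD over members was 0.96 and 12 of them lay more than 1 log2 unit from the median. Groups did not overlap for 30 members with higher values (37.6% of all genes) and 25 with lower values (39.4%). RPS28 and RPL10 passed a log2 change of 2 upwards (5.03% of all genes) and RPL39L downwards (7.8%). With only the 6 libraries of Control and LR fitted, 26 were higher and 21 lower (34.8% and 36.8% of all genes).

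Members that ended higher in LR included RPS28 (4.29 ± 0.19 log2 units, adjusted p = 4.3e-09), RPL10 (2.15 ± 0.14 log2 units, adjusted p = 1.2e-07), RPS27L (1.64 ± 0.17 log2 units, adjusted p = 5.9e-06) and RPL38 (1.40 ± 0.22 log2 units, adjusted p = 0.00013). RPL3 (47.4% shared) read 652, 618 and 666 normalised read counts in Control, 1262, 1189 and 994 in DTP, 1547, 1144 and 1664 in DTEP and 1516, 1589 and 1779 in LR. It ended at 1.33 ± 0.17 log2 units (adjusted p = 3.3e-05), with all LR libraries above all Control libraries. RPL4, also of the large subunit, read 474, 477 and 465 normalised read counts in Control, 892, 919 and 809 in DTP, 1841, 1271 and 1333 in DTEP and 1026, 971 and 1236 in LR, and ended at 1.18 ± 0.17 log2 units (adjusted p = 6.5e-05). Members that ended lower included RPL39L (-4.58 ± 0.29 log2 units, adjusted p = 6.6e-08), RPL27A (-1.59 ± 0.28 log2 units, adjusted p = 0.00036) and FAU (-1.45 ± 0.23 log2 units, adjusted p = 0.00017). RPS3 ended at -0.76 ± 0.25 log2 units (adjusted p = 0.0204) and RPLP0, a common reference gene in PCR, at -0.50 ± 0.20 log2 units (adjusted p = 0.0446). The call of RPS3 was lost under 5 alternatives and that of RPLP0 under 10, where its adjusted p reached 0.122, among them leaving out any Control library, LR replicate 1 or LR replicate 2. RPLP0 read 709, 689 and 707 normalised read counts in Control, 1202, 1211 and 977 in DTP, 1093, 686 and 646 in DTEP and 462, 451 and 582 in LR, with no overlap between LR and Control. RPLP2, its partner in the stalk, ended at 0.00 ± 0.28 log2 units (adjusted p = 0.99), and RPLP1 at 0.71 ± 0.22 log2 units (adjusted p = 0.0153).

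The left-out neighbours of ERBB2 rose in DTP, as most members did, and then fell far below Control in DTEP and LR. RPL19 read 7047, 6696 and 7278 normalised read counts in Control, 13443, 12518 and 9597 in DTP, 2079, 947 and 652 in DTEP and 427, 414 and 510.1 in LR, and RPL23 read 3121, 3076 and 3028 normalised read counts in Control, 7889, 8294 and 6438 in DTP, 1274, 498 and 359 in DTEP and 324, 358 and 383 in LR. Their log2 changes from DTP to DTEP were -3.43 ± 0.34 log2 units (adjusted p = 3.1e-06) and -3.62 ± 0.35 log2 units (adjusted p = 2.6e-06), and ERBB2 itself averaged 8545 in DTP and 1627 in DTEP. Adding both back can move a member count by at most 2, so the counts cannot show what leaving them out did. The summed levels do depend on it. RPL19 averaged 7007 in Control and 450 in LR and RPL23 3075 and 355, where the 83 members summed to 20599 and 22476. With both added, the mean sum in LR would lie below that in Control. RPL36AL, a ribosomal protein gene whose symbol falls outside the rule, rose in DTP by 0.98 ± 0.20 log2 units (adjusted p = 0.00169).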

How the data were processed

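Per the labels and the study's methods, stranded mRNA libraries were aligned to hg38 with Rsubread, reads were assigned to RefSeq gene models with default settings, and bcl2fastq and edgeR are named in the submitters' processing notes. The deposited table holds a normalised signal per gene and library. All 199680 values above 0 were whole multiples of 1 read to within 1e-06 reads, and the authors' values equalled CPM of the TMM-scaled library size to within a relative difference of 1e-06. Default counting ignores strand, so reads of overlapping antisense genes are not told apart by strand. Depth was 16383363 to 25030482 reads per library.

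Differential expression was computed here with limma 3.58.1 (R 4.3.3) from log2(value + 1), in 1 model of all 12 libraries with a variance trend, over the 13794 genes that reached 1 in 3 or more libraries. The two-sided p-values of each of 5 comparisons were adjusted over all tested genes (Benjamini-Hochberg). Errors of log2 changes are standard errors, and other errors are SD. A log2 change understates the change of low genes. edgeR 4.0.16 and DESeq2 1.42.0 on the recovered reads were alternatives. In simulated counts for DTP against Control, limma recovered 200 of 200 genes changed 2-fold, with 16 false calls among 13401 genes. The changed genes were drawn from those with over 200 expected reads. All genes had 1 small fixed dispersion, and libraries of a group differed only in depth. The real replicates differed more, so this checks the code and not how well changes are recovered here.

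The members and gene lists were chosen with earlier results of these data known. Named members were the 3 largest and 3 smallest called changes without overlap of groups in each transition, the paralogs and their counterparts, a list of members with known further roles, the highest and lowest per kb of coding length, and genes outside the rule. Some of these are not reported here. RPL4, RPL14, RPL30, RPL37A, RPS10 and RPS13 were named after their values were seen. Coding lengths and 50-base windows were taken from GENCODE 44 on hg38. Protein sequences were not used here.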

Additional observations from a re-analysis of the deposited data

How the results depend on the processing

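The rise of the members in DTP kept its direction under every alternative run (other pseudocounts, filters, scalings, a fit without a variance trend, edgeR, DESeq2, a replicate block and each library left out), whereas the counts for DTEP and LR depended on single libraries. No filter, or only the 6 libraries compared, gave 2 members lower in DTP (all genes 20.9% and 37.6%). An absolute log2 change above 1 left 29 higher in DTP (all genes 9.24%), 5 higher and 9 lower from DTP to DTEP (22.4% and 19.5%), 2 lower from DTEP to LR (2.5%), 19 higher and 1 lower in DTEP against Control (15.1% and 16.4%), and 7 higher and 6 lower in LR against Control (16.9% and 19.6%). Members with under 50% shared windows, a choice made after seeing the data, gave 42 higher and 0 lower in DTP, 2 and 12 from DTP to DTEP, 3 lower from DTEP to LR, 30 and 3 in DTEP against Control, and 8 and 7 in LR against Control. Only the 6 libraries compared gave 12 lower from DTP to DTEP (all genes 29%), 0 lower from DTEP to LR (0%), 1 lower in DTEP against Control (26.9%), and 26 higher and 21 lower in LR against Control. From DTEP to LR the lower count was 1 without a filter (all genes 1.41%), 18 with edgeR (8.56%) and 45 with DESeq2 (15.1%). The causes were not tested.

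With the replicate number as a block, 5 members were lower from DTEP to LR instead of 9 (2.57% instead of 4.31% of all genes), and no other count of members moved by over 1.5 times. Over 18 pairs of libraries with the same number the deviations correlated at -0.44 to 0.36, with 2 pairs above 0.1, so the numbers were not taken as pairing.

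With 1 library left out, the counts ranged from 57 to 70 higher and 1 to 2 lower in DTP, 8 to 16 higher and 15 to 43 lower from DTP to DTEP, 0 to 64 lower from DTEP to LR, 34 to 61 higher and 2 to 9 lower in DTEP against Control, and 11 to 25 higher and 9 to 18 lower in LR against Control. Over all genes, 18.7 to 30.3% were then higher and 23.2 to 33.4% lower in DTP. From DTP to DTEP these shares were 32.4 to 38.2% and 28.5 to 33.5%, and from DTEP to LR 0.494 to 28.2% were lower. In DTEP against Control they were 25.4 to 33% and 24.1 to 30.7%, and in LR against Control 26.9 to 33.7% and 27.8 to 36.2%. The 2 lower members in DTP came without DTEP replicate 1 or 3, the 25 higher in LR against Control without DTEP replicate 1, and 2 lower in DTEP against Control without Control replicate 1 or 3. The count from DTEP to LR was 1 without any 1 Control replicate or DTP replicate 2 (1.49 to 1.63% of all genes lower). It was 3 without DTP replicate 1 (2.15% of all genes). The member median in LR against Control ranged from -0.046 to 0.12, negative without LR replicate 3. Over 33 named genes, 3674 of 3950 alternative values stayed on the same side of the threshold, 180 lost the call and 96 gained it. Of values called in either fit, 0 changed sign. Values called in neither fit did change sign in some cases, such as RPL41 from DTP to DTEP (-0.40 to 0.24). The all-gene median shifted by over 0.1 (log2) for DTP to DTEP with CPM without TMM factors (-0.11), median-of-ratios scaling (-0.10) and CPM of reads outside the members (-0.13), which also gave 0.11 for DTP, and for LR against Control with edgeR (0.10). With these 3 scalings, 29 members were lower from DTP to DTEP, where 35.8%, 35.4% and 36.4% of all genes were lower. Members under 1 normalised read count are limited by depth, and members with shared windows by read placement.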
